A study of Mus musculus with 15 samples.

Results

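Tumor derived endothelial cells (TDECs) are cells with endothelial traits that arise from glioma cells rather than from the host's vessels. The comparison described here set TDECs collected after sertraline against the 005 mouse glioma stem cells from which they had been made, and asked what remained of the differentiation program once the drug had been given. It used 6 of the 15 libraries of the series, 3 per group, picked by their labels and not by any measured value. The other libraries were 3 of untreated TDECs, 3 of TDECs on day 2 and 3 of mouse brain microvascular endothelial cells (MBMECs), and all 5 groups carry the strain label C57BL/6. The sertraline-treated TDECs came from 005 cells grown in EGM-2 BulletKit endothelial medium at 1% O2 for 5 days, then given 5 µM sertraline and collected 24 h later. The 005 cells are 1 cell line, kept as stem cells in serum-free medium, with an oxygen level that the sources used here do not give. Medium, time in culture and drug therefore all differ between the 2 groups, and oxygen may differ too. These cannot be told apart. The untreated TDECs, whose label gives no day and which the study describes as day 5, appear below to show where a treated level lies. They enter as levels, as list medians against 005 and in a direct test against the treated TDECs. Their time of collection relative to the treated ones is not given in the sources used here, and the titles of the untreated and 005 libraries carry a prefix that the treated titles lack, so whatever it marks cannot be told apart from the treatment.

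Poly(A)-selected RNA had been sequenced with a strand-specific kit. The total count was 13557376 to 13639357 in the sertraline-treated libraries, 11283680 to 12455832 in the untreated TDEC libraries and 12732819 to 12972933 in the 005 libraries. Mitochondrially encoded genes took 2.40% to 2.55% of the counts in the sertraline-treated, 3.37% to 3.48% in the untreated TDEC and 2.11% to 2.65% in the 005 libraries. Replicate 2 of the sertraline-treated TDECs and replicate 3 of 005 each stood apart from their group. The mean chi-square per gene between 2 libraries, which counting noise alone brings to about 1, was 6.51 to 6.78 for pairs with that treated library against 2.21 for the other treated pair, and 10.3 to 10.6 for pairs with that 005 library against 2.09 for the other 005 pair. Results that move without them are given beside the value. The study calls the drug-treated libraries biological replicates, but nothing states that the 005 libraries came from separate cultures, so the p-values may measure technical spread. In bulk RNA, fewer cells of a type and less RNA per cell cannot be told apart.

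Several programs bear on such cells. Low oxygen stabilizes hypoxia-inducible factor, which switches on glucose uptake, glycolysis and angiogenic ligands such as Vegfa. Amino acid shortage and misfolded proteins act through ATF4 in the integrated stress response and through XBP1 and ATF6 in the unfolded protein response. Cells that leave the cell cycle lose the transcripts of DNA replication and mitosis, and growth factor signals raise the immediate early genes within minutes. Sertraline is an antidepressant that blocks the serotonin transporter, encoded by Slc6a4.

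Sertraline-treated TDECs and 005 cells differed in a large share of the genes measured. The first principal component separated the groups and held 87.5% of the variance of log2 CPM (counts per 1e6 reads of the library), and the mean distance between libraries was 133 across groups, against 39.3 among treated and 44.9 among 005 libraries. Of 49585 genes in the table, 15579 had enough counts to test, and a gene was called when its adjusted p was under 0.05 and its level differed by more than 2-fold. On this rule 1899 genes (12.2% of those tested) rose and 1585 (10.2%) fell in sertraline-treated TDECs. More than 4-fold changes covered 615 genes that were higher and 521 that were lower, and more than 16-fold changes covered 111 and 54. The 3 treated and the 3 005 libraries did not overlap for 10494 genes, 67.4% of those tested, and the median log2 fold change of all tested genes was -0.0028. Levels below are CPM scaled over the treated, untreated and 005 libraries, and each log2 fold change is sertraline-treated TDECs over 005 cells, ± SE, with n = 3 per group.

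**Figure D1:**
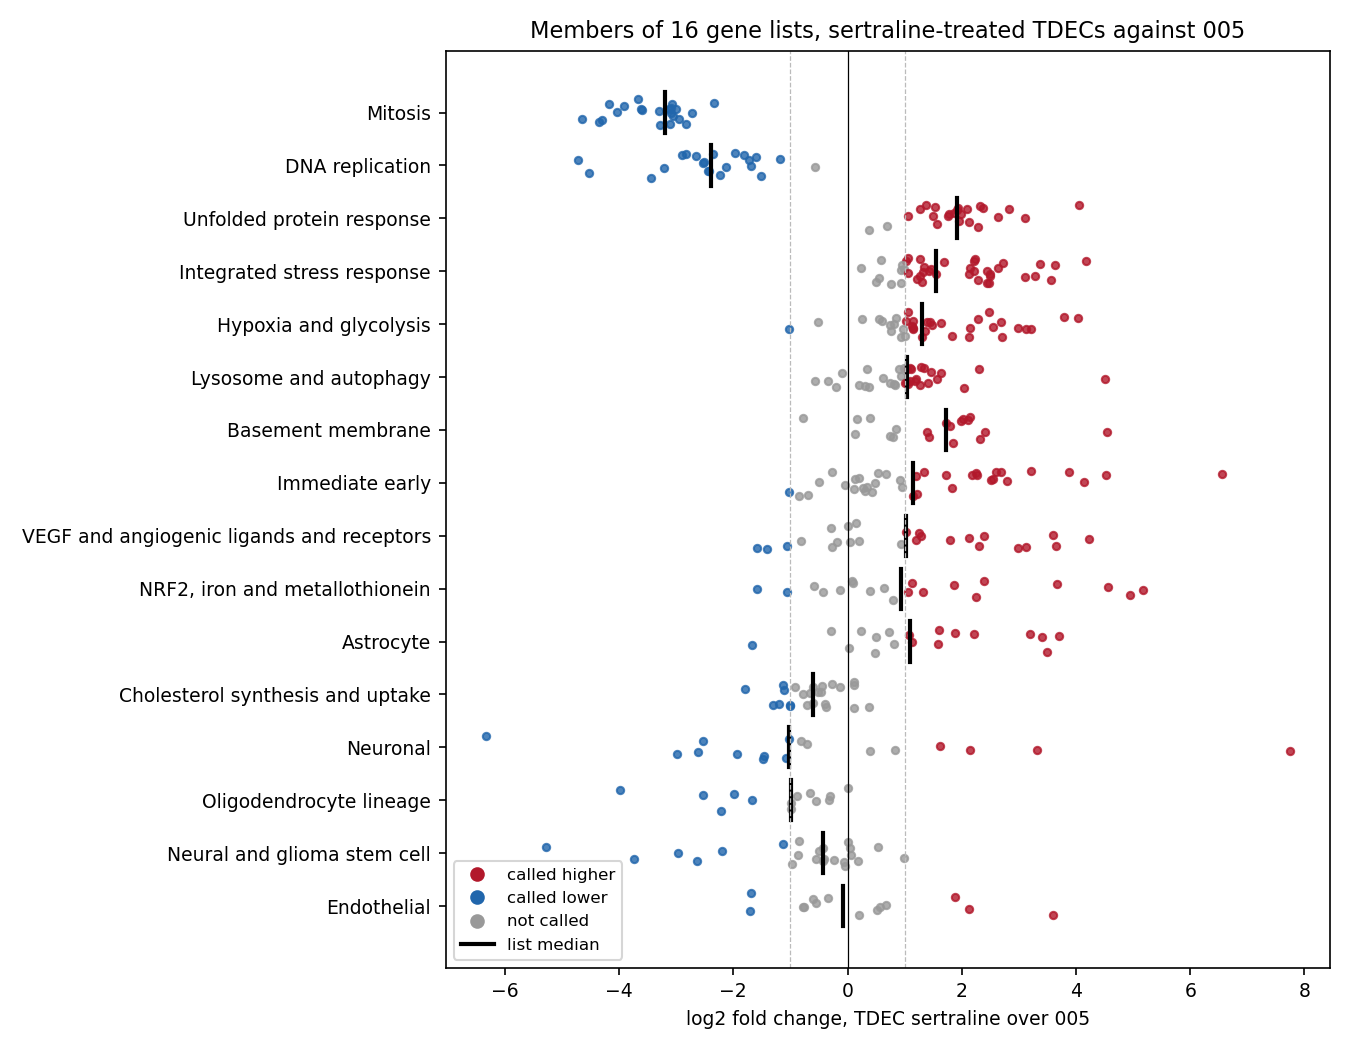
Log2 fold change of sertraline-treated TDECs over 005 cells (horizontal axis) for the tested members of 16 gene lists; each point is a gene, red when called higher, blue when called lower and grey when not called, the black bar is the list's median and the dashed lines mark 2-fold. All 22 mitosis genes lie to the left, 22 of 24 unfolded protein response genes are called to the right, and the endothelial list lies on both sides of 0.

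The largest rises were in genes near silence in 005 cells. Only genes whose groups did not overlap were ranked, for rises and falls alike. The lack of overlap among them is therefore no result. Dhrs3, a retinaldehyde reductase on mm10 chr4:144892827-144928209 (+), had 59.96, 58.98 and 63.1 CPM in treated TDECs, against 0.147, 0.0749 and 0.0731 CPM in 005 cells, a log2 fold change of 9.14 ± 0.19 (adjusted p = 1.6e-11). Rarb, the retinoic acid receptor beta, had 69.7, 77.97 and 69.3 CPM in treated TDECs, against 0.221, 0.749 and 0.731 CPM in 005 cells (6.97 ± 0.19). Scg2, which encodes the secretory granule protein secretogranin II on mm10 chr1:79434669-79440120 (-), had 261, 306 and 244 CPM in treated TDECs, against 1.397, 1.05 and 1.32 CPM in 005 cells (7.74 ± 0.15, adjusted p = 1.1e-11). In each of these 3 genes the treated libraries lay far above every 005 library and close to each other. Otog, which encodes the inner ear glycoprotein otogelin, had 16.6, 11.8 and 18.6 CPM in treated TDECs, against 0, 0 and 0 CPM in 005 cells. Its 634 counts in the treated libraries, set against a group floor of 3 counts where 005 had none, made it at least 212-fold higher. Ogn, the small proteoglycan osteoglycin, had 13.5, 18.6 and 11.2 CPM in treated TDECs, against 0, 0 and 0.0731 CPM in 005 cells, which is 585 counts against 1, a ratio of 587 with a 95% counting interval of 105 to 23200. Such intervals cover counting error only.

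Further down the same ranking, Ctgf, a secreted matrix-associated growth factor, had 14.5, 17.3 and 12.6 CPM in treated TDECs, against 0.294, 0 and 0.146 CPM in 005 cells, and its fitted log2 fold change of 6.56 ± 0.36 was 7.47 without replicate 1 of 005. The angiotensin-converting enzyme gene Ace had 30.6, 34 and 31.5 CPM in treated TDECs, against 0.441, 0.225 and 0.658 CPM in 005 cells (6.15 ± 0.21). The vitamin D receptor Vdr had 10.1, 15.6 and 10.3 CPM in treated TDECs, against 0.0735, 0.1498 and 0.293 CPM in 005 cells (6.04 ± 0.37, and 6.63 without replicate 3 of 005). The differences of these 3 genes were many times the spread of the treated libraries. Klhdc8a had 14.6, 21.5 and 12.03 CPM in treated TDECs, against 0.0735, 0.375 and 0.293 CPM in 005 cells (5.97 ± 0.38). Lcn2, the siderophore-binding lipocalin 2, had 21.9, 59.3 and 19.01 CPM in treated TDECs, against 0.662, 0.4495 and 0.804 CPM in 005 cells (5.69 ± 0.54, and 4.98 without replicate 2 of the treated group). The high treated value of Lcn2 came from replicate 2 alone, and the other 2 treated libraries lay close together. Lpin3, a phosphatidate phosphatase, and Crispld2, a secreted protein, rose by 5.67 ± 0.24 and 5.55 ± 0.16 on the log2 scale.

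The largest falls included the young-neuron gene Dcx and several genes of the dividing cell. Dcx, a microtubule-binding protein of young neurons, had 1.04, 0.3695 and 0.743 CPM in treated TDECs, against 57.4, 64.8 and 53.2 CPM in 005 cells (-6.33 ± 0.20, adjusted p = 1.1e-10). The imprinted non-coding RNA H19 had 0.3697, 0.739 and 0.149 CPM in treated TDECs, against 20.2, 17.98 and 27.4 CPM in 005 cells, a log2 fold change of -5.67 ± 0.31 that was -6.35 without replicate 2 of the treated group. Hes5, a transcriptional repressor that Notch signalling induces, had 0.148, 0.517 and 0.668 CPM in treated TDECs, against 15, 15.6 and 22.2 CPM in 005 cells (-5.28 ± 0.31). These 3 genes were present in every 005 library and almost absent from every treated library. Kcnv1, a modifying potassium channel subunit, had 0.0739, 0.0739 and 0.223 CPM in treated TDECs, against 12.6, 13.5 and 11.2 CPM in 005 cells (-6.55 ± 0.31, and -7.22 without replicate 3 of the treated group). Capn6, a calpain-like protein that binds microtubules, had 0.222, 0.148 and 0.371 CPM in treated TDECs, against 11.9, 12.1 and 14.6 CPM in 005 cells (-5.65 ± 0.28). Prr18 had 2.66, 1.77 and 2.38 CPM in treated TDECs, against 55.1, 55.3 and 67.8 CPM in 005 cells (-4.703 ± 0.16). That the groups were apart for each of them followed from the ranking rule. The other 6 of the 12 largest falls were the cell cycle genes Rrm2, Mki67, Tk1, Pbk, Neil3 and Kif14, with log2 fold changes of -4.71 to -4.395; only Neil3, a DNA glycosylase, moved by more than 1.5-fold when a library was left out, to -5.25 without replicate 1 of the treated group.

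**Figure D2:**
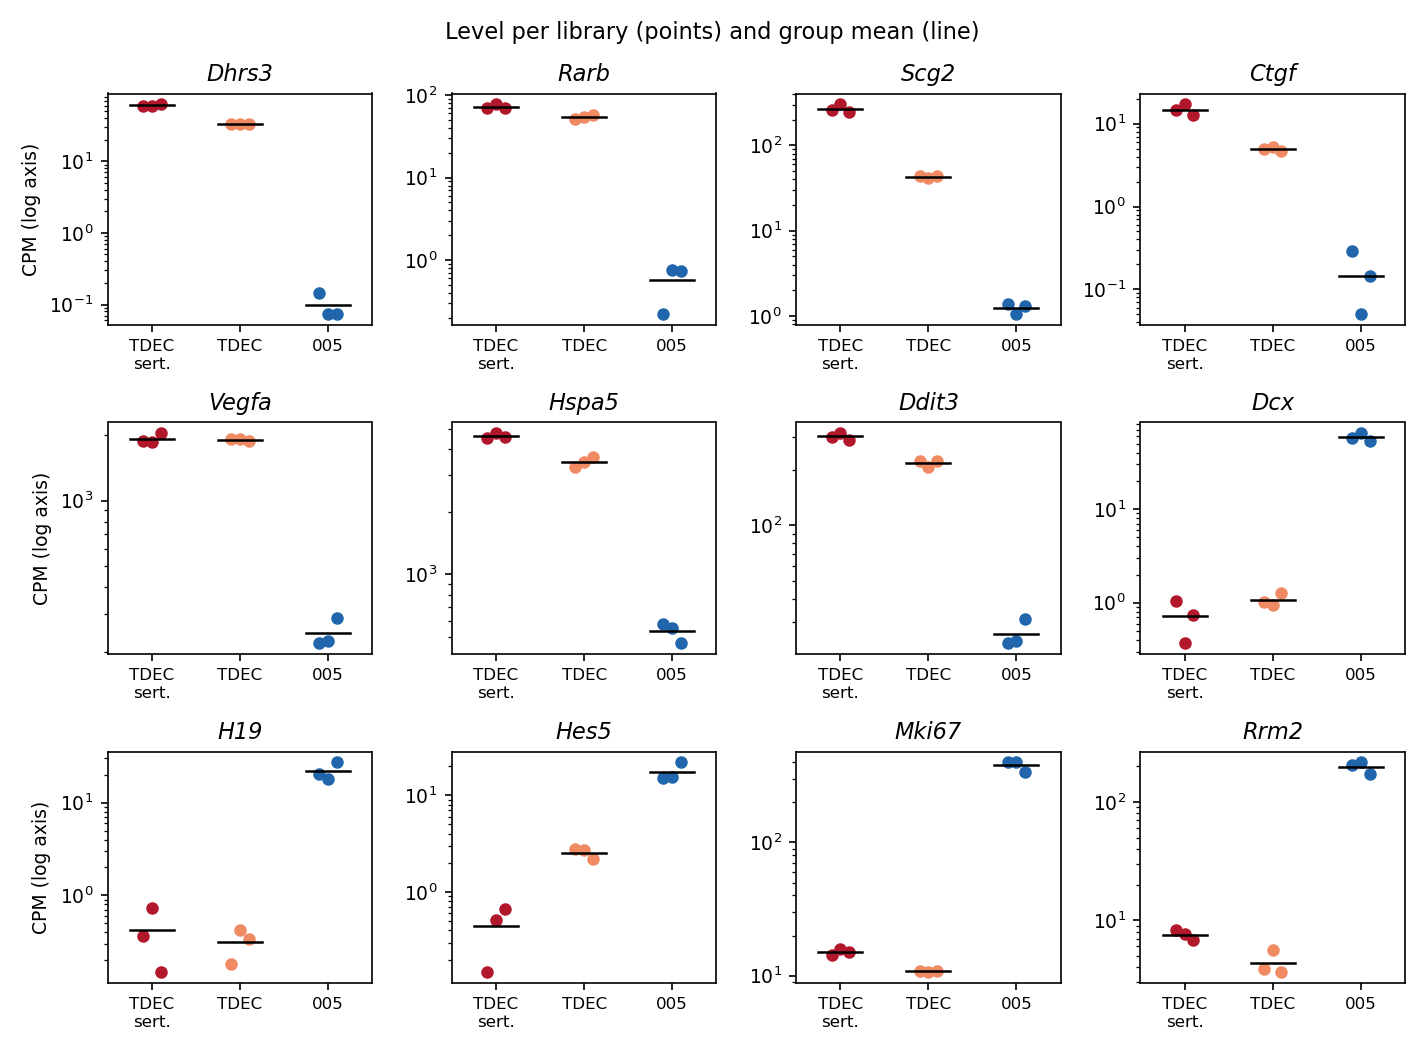
Level in each library (points, CPM on a log axis) and group mean (line) of 12 genes in sertraline-treated TDECs, untreated TDECs and 005 cells, 3 libraries each; values of 0 are drawn at 0.05. Scg2 is higher in treated TDECs (mean 270.2 CPM) than in untreated TDECs (43.1 CPM) and 005 cells (1.25 CPM), while Mki67 lies at 15.1, 10.8 and 380 CPM in these groups.

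The transcripts of cell division were almost all lower in sertraline-treated TDECs. Of 22 DNA replication genes, 21 fell and none rose (median log2 fold change -2.39), and all 22 mitosis genes fell, with a median of -3.20. The median of all tested genes was near 0 and 10.2% of them fell. Mki67, the antigen used to mark dividing cells, had 14.3, 15.96 and 15 CPM in treated TDECs, against 398, 401 and 340.2 CPM in 005 cells (-4.65 ± 0.098, adjusted p = 1.6e-11). Plk1, the polo-like kinase of mitosis, had 7.76, 8.499 and 8.02 CPM in treated TDECs, against 109.5, 99.3 and 101 CPM in 005 cells (-3.67 ± 0.092). Ccnb1, which encodes cyclin B1, had 14.8, 12.9 and 12.6 CPM in treated TDECs, against 170.4, 165 and 152 CPM in 005 cells (-3.59 ± 0.091), and the groups lay apart for all 3 genes. Prc1, a protein that cross-links the microtubules of the dividing spindle, had 24.3, 27.9 and 23.8 CPM in treated TDECs, against 216, 223 and 205 CPM in 005 cells (-3.08 ± 0.086).

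Among the replication genes, Rrm2, the small subunit of ribonucleotide reductase, had 8.21, 7.69 and 6.83 CPM in treated TDECs, against 207, 218 and 172 CPM in 005 cells (-4.71 ± 0.12). Rrm1, its large subunit, had 33.7, 37.5 and 32.98 CPM in treated TDECs, against 276, 282 and 225 CPM in 005 cells (-2.91 ± 0.10). Tk1, thymidine kinase, had 3.55, 3.62 and 2.97 CPM in treated TDECs, against 80.9, 79.2 and 74.4 CPM in 005 cells (-4.53 ± 0.11). In these 3 genes replicate 3 was the lowest of the 005 libraries and still lay far above each treated library. Mcm5, a subunit of the replicative helicase, had 14.4, 13.5 and 12.8 CPM in treated TDECs, against 156, 155 and 130.4 CPM in 005 cells (-3.44 ± 0.099). The 1 replication gene not called was Gins2, a subunit of the same helicase complex, with 29.7, 35.6 and 33.9 CPM in treated TDECs, against 47.3, 49.6 and 49.9 CPM in 005 cells (-0.56 ± 0.091).

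The 10 cyclin-dependent kinase inhibitors and D cyclins went both ways, with 3 higher (30%, against 12.2% of all genes) and 4 lower (40%, against 10.2%). Cdkn2b, which encodes the inhibitor p15, had 149.9, 170.1 and 147 CPM in treated TDECs, against 18.7, 19.7 and 23.1 CPM in 005 cells (2.92 ± 0.099). Cdkn1a, which encodes p21, had 202, 250.1 and 216 CPM in treated TDECs, against 27.4, 26.8 and 40.2 CPM in 005 cells (2.82 ± 0.14). Cdkn2a, whose locus encodes p16 and p19Arf, had 559, 635 and 553 CPM in treated TDECs, against 199.6, 213 and 258 CPM in 005 cells (1.38 ± 0.099). All 3 were higher in each treated library than in each 005 library. Cdkn2c, Cdkn2d and Cdkn1c, which encode the inhibitors p18, p19 and p57, fell, with log2 fold changes of -1.89, -1.21 and -1.38. Ccnd1, cyclin D1, had 1106, 1029 and 1068 CPM in treated TDECs, against 2191, 2208 and 2637 CPM in 005 cells (-1.13 ± 0.081), while Ccnd2 (0.22) and Ccnd3 (0.14) were not called. In the test of treated against untreated TDECs, in which 1.82% of 15540 genes were called higher and 3.26% lower, 4 of the 22 mitosis genes and none of the 22 replication genes were called higher. The 4 were Plk1 (mean 8.09 CPM in treated, 3.69 CPM in untreated TDECs), Cdc20 (10.96 and 5.29 CPM), Cenpe (19.1 and 8.46 CPM) and Ube2c (12.7 and 6.201 CPM), and in 005 cells their means were 93.7 to 166 CPM. The count was 2 without replicate 2 of the treated group.

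Promoter sequences of cell cycle genes show the letters through which the repressor complexes of resting cells are known to act. The cell cycle homology region (CHR) has the core TTTGAA, and an E2F site can read TTTGGCGC. On either strand within 250 bases before to 50 bases after the start of the gene, TTTGAA was found in 12 of 17 mitosis genes with a promoter in the RefSeq table (70.6%, against 20.2% of the promoters of 27025 genes), and TTTGGCGC in 5 of 17 replication genes (29.4%, against 0.585%). A match is a description of letters and not a site. The 120-base stretches below come from RefSeq on GRCm38.p6 and carry those letters, or their reverse complement, in capitals. Mki67 and Prc1 show the CHR letters at chr7:135716433-135716552 (-) and chr7:80294356-80294475 (+), and Mcm5 and Mcm6 the E2F letters at chr8:75109304-75109423 (+) and chr1:128359752-128359871 (-).
Mki67: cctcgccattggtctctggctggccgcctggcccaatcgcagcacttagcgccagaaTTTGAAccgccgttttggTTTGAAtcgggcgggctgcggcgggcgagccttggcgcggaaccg
Prc1: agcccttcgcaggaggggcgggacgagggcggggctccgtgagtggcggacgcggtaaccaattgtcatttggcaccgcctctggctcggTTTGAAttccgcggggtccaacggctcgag
Mcm5: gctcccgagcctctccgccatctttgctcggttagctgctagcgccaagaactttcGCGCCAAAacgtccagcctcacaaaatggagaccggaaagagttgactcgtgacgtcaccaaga
Mcm6: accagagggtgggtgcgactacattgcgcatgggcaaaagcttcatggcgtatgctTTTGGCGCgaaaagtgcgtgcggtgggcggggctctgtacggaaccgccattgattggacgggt

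Most hypoxia and glycolysis genes were higher in sertraline-treated TDECs. Of 37 genes, 25 rose (67.6%, against 12.2% of all genes tested) and 1 fell, and the median log2 fold change was 1.31. Slc2a1, the glucose transporter GLUT1, had 281, 284 and 284 CPM in treated TDECs, against 28.1, 30.6 and 32.98 CPM in 005 cells (3.21 ± 0.082, adjusted p = 4.0e-11). Pfkfb3, the kinase that makes the activator of phosphofructokinase, had 454, 459.5 and 464 CPM in treated TDECs, against 68.9, 74.2 and 68.5 CPM in 005 cells (2.704 ± 0.071). Adm, which encodes the vasodilator peptide adrenomedullin, had 94.9, 103 and 93.7 CPM in treated TDECs, against 10.7, 10.6 and 12.1 CPM in 005 cells (3.13 ± 0.094). For these 3 genes the libraries of each group lay within a narrow band and the bands did not touch. The collagen prolyl hydroxylase P4ha2 (3.78 ± 0.18), the mitophagy receptor Bnip3 (2.29 ± 0.090) and the oxygen sensor Egln3 (1.48 ± 0.074) also rose. Several glycolytic enzymes changed less: Tpi1 (just under the 2-fold rule), Ldha (0.85), Pgam1 (0.75), Eno1 (0.54) and Pkm (0.25) were not called. The 1 lower gene, Car12, a carbonic anhydrase, had 2.29, 1.85 and 4.23 CPM in treated TDECs, against 4.04, 5.77 and 7.31 CPM in 005 cells (-1.03 ± 0.31), and its groups overlapped. Its call was lost without replicate 1 or 2 of the treated group (-0.91 and -0.81) and without replicate 3 of 005 (-0.81). Without both libraries that stood apart, 26 of the 37 genes rose and none fell.

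Untreated TDECs had means of 244 CPM for Slc2a1 and 515 CPM for Pfkfb3, close to those of treated TDECs (283 and 459 CPM). Against untreated TDECs, 1 of the 37 genes was called higher and 2 were called lower, where 1.82% and 3.26% of all genes were called, so these counts are no result about the list. Adm was the higher one, with a mean of 97.3 CPM in treated and 38.6 CPM in untreated TDECs. The lower ones were carbonic anhydrases: Car9 averaged 1.16 CPM in treated and 3.53 CPM in untreated TDECs, and Car12 averaged 2.79 and 8.78 CPM.

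The hypoxia response element has the core ACGTG, which stood on either strand in the promoters of 22 of 34 list members (64.7%, against 21.8% of 27025 genes). Slc2a1 and Pfkfb3, whose levels are given above, are shown with that core in capitals, from chr4:119108625-119108744 (+) and chr2:11553930-11554049 (-) of GRCm38.p6.
Slc2a1: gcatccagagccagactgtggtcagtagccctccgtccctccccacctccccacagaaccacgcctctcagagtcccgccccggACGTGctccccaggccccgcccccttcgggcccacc
Pfkfb3: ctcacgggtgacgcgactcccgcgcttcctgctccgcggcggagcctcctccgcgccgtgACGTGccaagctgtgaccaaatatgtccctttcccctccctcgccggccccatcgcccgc

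Most integrated stress response genes rose. Of 41 genes, 32 rose and none fell, and their median log2 fold change was 1.55, with 12.2% of all genes rising. Ppp1r15a, which encodes the phosphatase subunit GADD34 that ends the response, had 328, 354 and 322 CPM in treated TDECs, against 17.9, 19.4 and 18.2 CPM in 005 cells (4.18 ± 0.084, adjusted p = 1.4e-11). Ddit3, the transcription factor CHOP, had 303, 317 and 290.2 CPM in treated TDECs, against 22.9, 23.6 and 30.9 CPM in 005 cells (3.56 ± 0.11). Wars, a tryptophanyl-tRNA synthetase, had 435, 414 and 424 CPM in treated TDECs, against 78.3, 81.95 and 74.5 CPM in 005 cells (2.44 ± 0.072). The treated libraries differed from each other by far less than they differed from 005. Vldlr, a lipoprotein receptor, had 658, 605 and 676 CPM in treated TDECs, against 141, 133 and 145 CPM in 005 cells (2.21 ± 0.074). Atf4, the central transcription factor, changed less, with 571, 672 and 571 CPM in treated TDECs, against 239.9, 244 and 251 CPM in 005 cells (1.304 ± 0.079). Its amino acid transport and synthesis targets covered a wide range, from Slc3a2 (2.49 ± 0.094), Slc7a11 (2.49 ± 0.098) and Cth (2.28 ± 0.088) to Asns (1.06 ± 0.066), and Psat1 (0.50) and Shmt2 (0.76) were not called. The 9 genes of the list that were not called had log2 fold changes of 0.24 to 0.99, and 6 of them encode aminoacyl-tRNA synthetases (Aars, Gars, Iars, Mars, Tars and Yars).

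Against untreated TDECs, where 1.82% of all genes were called higher and 3.26% lower, none of the 41 was called higher, and 1, Gdf15, a stress-induced cytokine, was called lower (mean 2.22 CPM in treated TDECs, 4.498 CPM in untreated TDECs and 0.222 CPM in 005 cells). Ppp1r15a averaged 335 CPM in treated and 354 CPM in untreated TDECs, and Ddit3 303 and 218 CPM. The C/EBP-ATF response element (CARE), through which ATF4 is known to act, was searched as TGATGNAAT on either strand and found in 5 of 34 promoters of the list (14.7%, against 1.08% of 27025). Of the 25 genes called higher that had a promoter in the table, 2 held it, Nupr1, a stress-induced chromatin protein, and Fgf21, a hormone of starvation. Nupr1 had 92.3, 90.98 and 92.9 CPM in treated TDECs, against 5.66, 5.69 and 10.8 CPM in 005 cells (3.64 ± 0.18). Fgf21, at a few CPM, had 2.14, 3.03 and 3.19 CPM in treated TDECs, against 0.294, 0.599 and 0.878 CPM in 005 cells (2.22 ± 0.37). Both groups of libraries were apart for both genes, and their promoter stretches at chr7:126625518-126625637 (-) and chr7:45615567-45615686 (-) of GRCm38.p6 show the reverse complement of those letters in capitals.
Nupr1: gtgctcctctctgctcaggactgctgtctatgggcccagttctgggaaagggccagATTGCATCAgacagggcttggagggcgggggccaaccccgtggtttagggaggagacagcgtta
Fgf21: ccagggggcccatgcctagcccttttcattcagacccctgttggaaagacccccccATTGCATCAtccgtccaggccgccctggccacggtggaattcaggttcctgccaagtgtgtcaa

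The unfolded protein response list had the highest share of rising genes among the lists described here. Of 24 genes, 22 rose (91.7%, against 12.2% of all genes) and none fell, with a median log2 fold change of 1.92. Hspa5, the endoplasmic reticulum chaperone BiP, had 4498, 4779 and 4551 CPM in treated TDECs, against 577, 553 and 467 CPM in 005 cells (3.12 ± 0.086, adjusted p = 6.3e-11). Pdia4, a protein disulfide isomerase, had 555, 521 and 562 CPM in treated TDECs, against 108, 106 and 100.4 CPM in 005 cells (2.38 ± 0.071). Hyou1, a chaperone of the same compartment, had 987, 941 and 1013 CPM in treated TDECs, against 237, 237 and 214 CPM in 005 cells (2.097 ± 0.071). Each treated library was above each 005 library for all of these. Creld2, a secreted factor induced by reticulum stress, had 192, 195 and 182 CPM in treated TDECs, against 35.7, 39.8 and 38.5 CPM in 005 cells (2.32 ± 0.076). The sensors themselves moved less uniformly: Atf6 (1.76 ± 0.076) and Ern1, which encodes IRE1 (1.57 ± 0.084), rose, while Eif2ak3, which encodes PERK (0.37), and the degradation factor Edem1 (0.69) were not called.

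In this list the treated TDECs lay above the untreated ones by median: 1.92 for treated and 1.45 for untreated TDECs, both against the same 005 libraries. The direct test of treated against untreated TDECs, which called 1.82% of all genes higher, called 1 of the 24 genes, Sdf2l1, a reticulum chaperone partner, which had 78.8, 86.99 and 84.5 CPM in treated TDECs, against 16.4, 16.9 and 18.3 CPM in 005 cells and 34.4, 34.1 and 36.2 CPM in untreated TDECs (1.24 ± 0.067 for treated over untreated, adjusted p = 1.4e-09). Below the 2-fold rule lay Creld2 (0.92 for treated over untreated, mean 189.7 and 99.3 CPM), Pdia6 (0.79, 818 and 469.5 CPM) and Hspa5 (0.39, 4609 and 3479 CPM). The endoplasmic reticulum stress element, CCAAT and CCACG with 9 bases between them, was found on either strand in 9 of 21 promoters of the list (42.9%, against 0.137% of 27025). All 9 belonged to genes that rose, but so did 19 of the 21, so that count is no result about the element. Hspa5, Creld2 and Pdia6, at chr2:34771970-34772089 (+), chr15:88819469-88819588 (+) and chr12:17266440-17266559 (+) of GRCm38.p6, are shown with both parts in capitals, on the opposite strand in Creld2.
Hspa5: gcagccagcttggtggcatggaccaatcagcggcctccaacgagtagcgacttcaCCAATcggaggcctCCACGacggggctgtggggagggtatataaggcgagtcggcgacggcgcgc
Creld2: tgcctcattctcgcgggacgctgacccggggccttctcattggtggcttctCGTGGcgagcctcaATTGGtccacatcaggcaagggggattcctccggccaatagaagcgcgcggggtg
Pdia6: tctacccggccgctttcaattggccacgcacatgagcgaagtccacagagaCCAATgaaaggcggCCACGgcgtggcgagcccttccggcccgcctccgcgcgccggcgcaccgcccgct

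Immediate early genes were higher in sertraline-treated TDECs than in 005 cells, and a part of them lay below untreated TDECs. Of 37 genes, 19 were higher in sertraline-treated TDECs than in 005 cells (51.4%, against 12.2% of all genes). Only 1 was lower (2.7%, against 10.2%), and the median log2 fold change was 1.14. Against untreated TDECs, 13 of the same 37 were lower and 3 were higher, where 3.26% and 1.82% of all genes were called. Egr1, a zinc finger transcription factor, had 337, 388 and 313 CPM in treated TDECs, against 54.5, 50.3 and 66.2 CPM in 005 cells (2.602 ± 0.11, adjusted p = 1.5e-09), and 1167, 1258 and 1239 CPM in untreated TDECs (-1.83 ± 0.067 for treated over untreated). Fosb, an AP-1 subunit, had 17.2, 15.2 and 15.1 CPM in treated TDECs, against 1.99, 2.85 and 3.44 CPM in 005 cells (2.52 ± 0.18), and 389, 412 and 398 CPM in untreated TDECs (-4.67 ± 0.068, adjusted p = 3.5e-17). Treated levels of both genes fell between the other groups, with no overlap on either side. Fos, another AP-1 subunit, had 57.1, 70.5 and 60.98 CPM in treated TDECs, against 20.4, 17.7 and 43.4 CPM in 005 cells (1.21 ± 0.25), and 753, 743 and 726 CPM in untreated TDECs (-3.57 ± 0.070). Replicate 3 was high among the 005 libraries for Fos, and the call against 005 was lost without replicate 2 of 005 (0.97). Egr3 had 11.5, 9.53 and 10.8 CPM in treated TDECs, against 1.03, 0.2996 and 0.804 CPM in 005 cells (3.88 ± 0.28), and 24.8, 24.6 and 19.9 CPM in untreated TDECs (-1.14 ± 0.12).

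Egr2, Egr4, Junb and Ier2 had the same order, with treated means of 31.3, 17.3, 134 and 55.1 CPM, untreated means of 93.4, 62.3, 279 and 191 CPM and 005 means of 4.85, 2.48, 52.98 and 24.9 CPM. Another 4 of the 13 genes were not called against 005. Klf2, a flow-responsive transcription factor of endothelium, had 11.1, 13.01 and 11.1 CPM in treated TDECs, against 12.1, 11.3 and 13.02 CPM in 005 cells (-0.048 ± 0.13, adjusted p = 0.761), and 45.9, 42.8 and 43.3 CPM in untreated TDECs. Dusp1, a phosphatase of MAP kinases, had 34.6, 39.02 and 34.02 CPM in treated TDECs, against 30.4, 31.3 and 38.5 CPM in 005 cells (0.10 ± 0.11), and 76.2, 78.8 and 73.99 CPM in untreated TDECs. In these genes the treated and 005 libraries overlapped, and the untreated ones lay above both. Zfp36, which destabilizes inflammatory mRNAs, averaged 10.6 CPM in treated TDECs, 28.5 CPM in untreated TDECs and 6.67 CPM in 005 cells, and Jun averaged 137, 367 and 221 CPM. The 1 gene lower than in 005, the anti-proliferative gene Btg2, had 45.1, 49.4 and 43.8 CPM in treated TDECs, against 91.01, 100.1 and 92.1 CPM in 005 cells (-1.03 ± 0.079), just past the 2-fold rule, and its log2 fold change was -0.99 without replicate 3 of the treated group or replicate 2 of 005.

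A few members had a different order, with the treated TDECs highest. Fosl2, the AP-1 subunit FRA2, had 163, 169 and 158 CPM in treated TDECs, against 31.98, 32.7 and 37.7 CPM in 005 cells (2.26 ± 0.084), and 74.5, 84.7 and 76.9 CPM in untreated TDECs (1.04 ± 0.061). Nr4a3, an orphan nuclear receptor, had 7.91, 8.06 and 8.02 CPM in treated TDECs, against 0.735, 0.524 and 0.0731 CPM in 005 cells (4.15 ± 0.35), and 1.29, 0.7695 and 0.591 CPM in untreated TDECs (3.17 ± 0.25). Ctgf, described above, had 4.97, 5.22 and 4.65 CPM in untreated TDECs (1.57 ± 0.15). The treated libraries of these 3 genes did not overlap with the others. Cyr61, a secreted matricellular relative of Ctgf, had 218, 303 and 202 CPM in treated TDECs, against 8.97, 9.74 and 12.7 CPM in 005 cells (4.52 ± 0.17), and Errfi1, an inhibitor of the EGF receptor, had 114, 133 and 106 CPM in treated TDECs, against 19.5, 20.5 and 20.6 CPM in 005 cells (2.54 ± 0.098), with neither called against untreated TDECs. Without both libraries that stood apart, 19 members were higher and 1 lower than in 005, and 14 were lower and 3 higher than in untreated TDECs. The cAMP response element, TGACGTCA, was found in 3 of 26 promoters of the list (11.5%, against 2.03% of 27025), among them that of Errfi1 at chr4:150854950-150855069 (+) of GRCm38.p6, shown with it in capitals.
Errfi1: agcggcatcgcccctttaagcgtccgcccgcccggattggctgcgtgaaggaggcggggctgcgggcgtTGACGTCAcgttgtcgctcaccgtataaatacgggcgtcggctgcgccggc

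**Figure D3:**
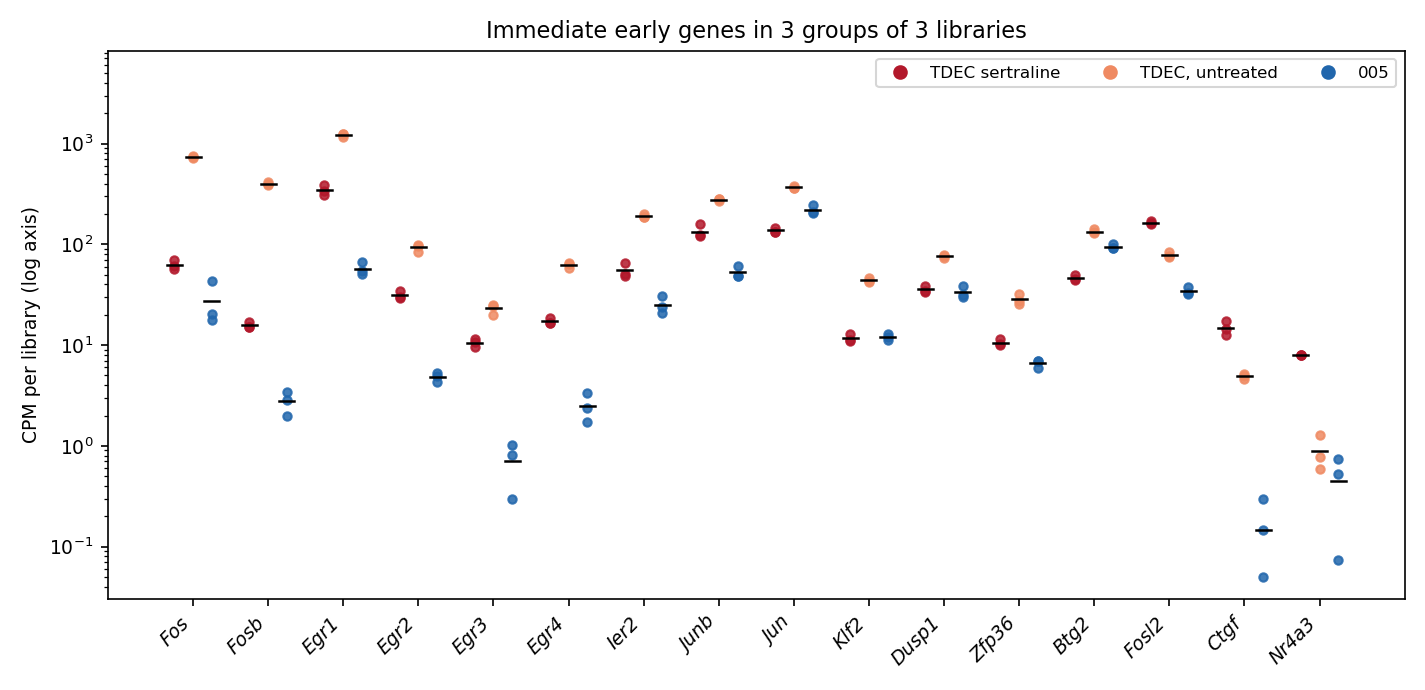
CPM per library (points, log axis) and group mean (line) of the 16 immediate early genes called between treated and untreated TDECs, in sertraline-treated TDECs (left of each trio), untreated TDECs and 005 cells; the value of 0 for Ctgf in 005 is drawn at 0.05. The first 13 genes have their highest level in untreated TDECs and the last 3 in treated TDECs.

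Angiogenic ligands and receptors were more often higher than lower in sertraline-treated TDECs, while the VEGF receptors Flt1 and Kdr stayed far below their MBMEC levels. Of 35 genes, 25 had enough counts to test, and the median log2 fold change was 1.02. Of those tested, 13 rose (52%, against 12.2% of all genes) and 3 fell (12%, against 10.2%). Vegfa, the main ligand of VEGF signalling, had 1881, 1854 and 2049 CPM in treated TDECs, against 219, 224 and 287 CPM in 005 cells (2.99 ± 0.11, adjusted p = 2.8e-10), and 1926, 1915 and 1889 CPM in untreated TDECs (0.00035 for treated over untreated). The treated and untreated libraries overlapped and both lay far above 005. Flt1, which encodes VEGF receptor 1, had 22.2, 21.4 and 19.01 CPM in treated TDECs, against 1.397, 1.72 and 2.05 CPM in 005 cells (3.59 ± 0.17), and 45.3, 41.8 and 39.8 CPM in untreated TDECs (-1.03 ± 0.090, or -0.96 without replicate 3 of the treated and -0.97 without replicate 1 of the untreated group). Kdr, which encodes VEGF receptor 2, had 4.88, 7.02 and 4.23 CPM in treated TDECs, against 1.18, 0.749 and 1.76 CPM in 005 cells (2.12 ± 0.31), and 4.51, 3.93 and 3.89 CPM in untreated TDECs (0.38 ± 0.21, not called). In MBMECs, scaled over all 15 libraries and given as a description, the means were 176 CPM for Flt1 and 613 CPM for Kdr.

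Among the other ligands, Angptl6, an angiopoietin-like secreted protein, had 58.5, 62.5 and 62.9 CPM in treated TDECs, against 3.896, 3.52 and 7.17 CPM in 005 cells (3.65 ± 0.18). Pdgfb, a growth factor that recruits pericytes, had 10.7, 16.9 and 10.1 CPM in treated TDECs, against 0.882, 0.4495 and 0.658 CPM in 005 cells (4.23 ± 0.30), and 2.85, 3.51 and 4.22 CPM in untreated TDECs (1.81 ± 0.22). Every treated library was above every other library for Pdgfb, and its replicate 2 was the highest. Cxcr4, a chemokine receptor, averaged 29.1 CPM in treated TDECs, 11.7 CPM in untreated TDECs and 5.92 CPM in 005 cells (2.300 ± 0.17 against 005). Fgf2 (1.19 ± 0.14), Pdgfa (1.26 ± 0.11), the VEGF co-receptor Nrp1 (1.28 ± 0.17) and the adrenomedullin co-receptor Ramp3 (2.396 ± 0.24) rose too. Ramp2, the other co-receptor, had 9.39, 10.4 and 8.99 CPM in treated TDECs, against 11.4, 11.9 and 11.6 CPM in 005 cells (-0.28 ± 0.13, adjusted p = 0.0759) and was not called against 005, but was higher than in untreated TDECs (4.88, 4.02 and 2.87 CPM, 1.28 ± 0.18).

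The 3 genes that fell, 12% of those tested and so near the 10.2% of all genes, were angiopoietins or their relatives. Angpt2, the angiopoietin that destabilizes vessels, had 20.3, 21.3 and 19.01 CPM in treated TDECs, against 50.7, 53.6 and 77.1 CPM in 005 cells (-1.58 ± 0.15, adjusted p = 1.4e-06), and 61.3, 55.6 and 61.9 CPM in untreated TDECs (-1.57 ± 0.081, adjusted p = 7.6e-10). The treated libraries lay below all untreated and 005 libraries, which overlapped with each other. Angpt1, the stabilizing angiopoietin, was near the detection limit with 0.3697, 0.3695 and 0.297 CPM in treated TDECs, against 0.735, 1.199 and 0.878 CPM in 005 cells (-1.41 ± 0.42, and adjusted p = 0.054 without replicate 2 of 005, within a range of 0.0064 to 0.346 over the alternatives). Angptl2 had 15.2, 13.1 and 13.6 CPM in treated TDECs, against 25.6, 24.4 and 37.5 CPM in 005 cells (-1.06 ± 0.16, and -0.84 without replicate 3 of 005). Tek, the angiopoietin receptor, had 12 counts over the treated libraries, 14 over the untreated TDEC libraries and 5 over the 005 libraries and was not tested.

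Most tested basement membrane genes rose. Of 24, 19 were tested, 12 rose (63.2% of those tested, against 12.2% of all genes) and none fell, with a median log2 fold change of 1.72. Lama4, the laminin alpha 4 chain of vessel walls on mm10 chr10:38965515-39110188 (+), had 316, 279.7 and 347 CPM in treated TDECs, against 63.3, 60.98 and 52.8 CPM in 005 cells (2.41 ± 0.099, adjusted p = 8.9e-10), and 831, 826 and 888 CPM in untreated TDECs (-1.44 ± 0.066, adjusted p = 2.3e-10). The treated libraries of Lama4 therefore lay between the other groups and overlapped with neither. Lama1, the laminin alpha 1 chain, had 54.9, 44.1 and 59.04 CPM in treated TDECs, against 2.57, 1.65 and 2.56 CPM in 005 cells (4.53 ± 0.17). Lamb1, the beta 1 chain, had 659, 565 and 624 CPM in treated TDECs, against 130.1, 123 and 119 CPM in 005 cells (2.32 ± 0.079), and Lamc1, the gamma 1 chain, had 1304, 1129 and 1241 CPM in treated TDECs, against 307, 287 and 262 CPM in 005 cells (2.102 ± 0.082). In all 3 chains replicate 2 was the lowest of the treated libraries, by less than the distance to 005. Col4a4, a collagen IV chain, averaged 6.67 CPM in treated TDECs, 15.3 CPM in untreated TDECs and 2.01 CPM in 005 cells, and was lower in treated than in untreated TDECs (-1.21 ± 0.16). Nid2, the linker protein nidogen 2, averaged 25.5 CPM in treated TDECs, 11.9 CPM in untreated TDECs and 19.5 CPM in 005 cells, and was higher in treated than in untreated TDECs (1.09 ± 0.11), a call that fell just under the 2-fold rule without replicate 1 of the treated group. The collagen IV chains found in nearly all basement membranes were not called: Col4a1 had a log2 fold change of 0.17 ± 0.072 (adjusted p = 0.0553) and Col4a2 of 0.79 ± 0.071.

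**Figure D4:**
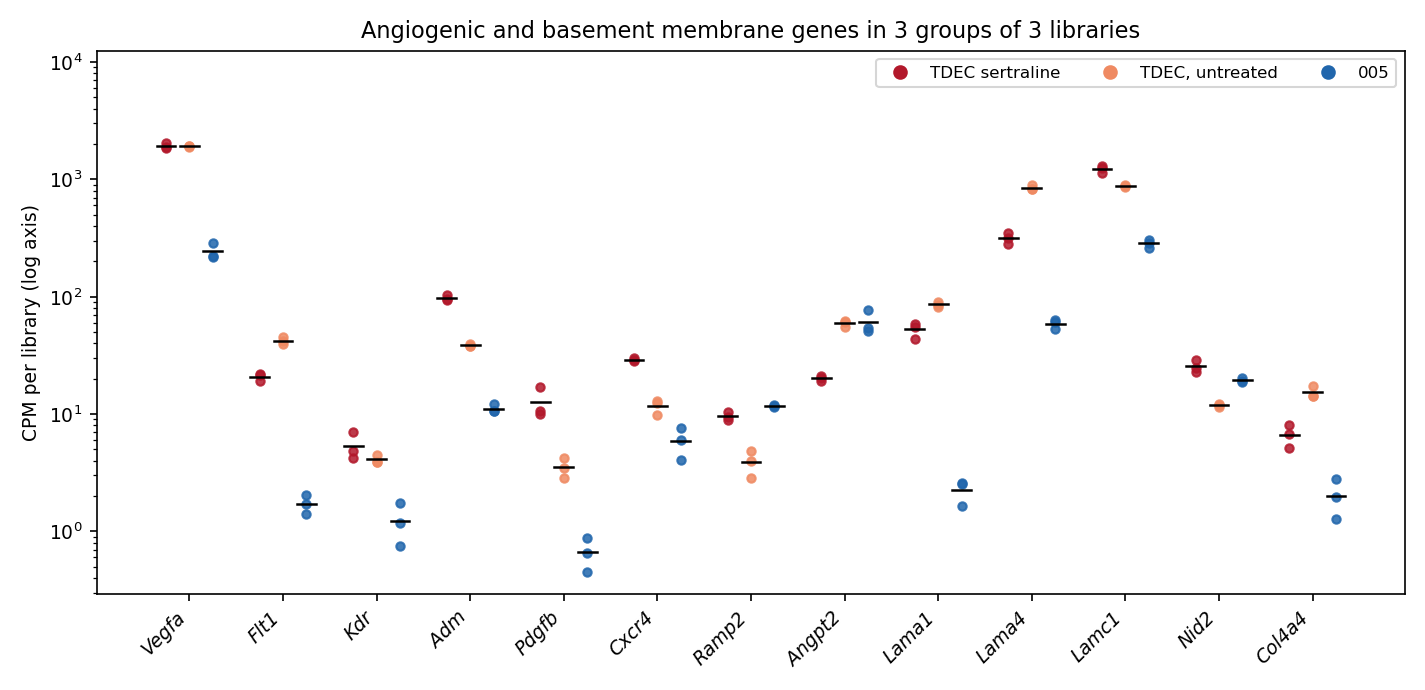
CPM per library (points, log axis) and group mean (line) of 13 angiogenic and basement membrane genes in sertraline-treated TDECs (left of each trio), untreated TDECs and 005 cells. Vegfa is at the same level in treated and untreated TDECs, Flt1 and Lama4 lie between untreated TDECs and 005, Angpt2 is lowest in treated TDECs, and Adm, Pdgfb and Cxcr4 are highest there.

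The endothelial label was checked against 30 endothelial markers. Of these, 14 had enough counts to test, 3 rose (21.4%, against 12.2% of all genes) and 2 fell (14.3%, against 10.2%). The median log2 fold change was -0.07, close to the -0.0028 of all genes. Besides Flt1 and Kdr, the lipid receptor S1pr1 rose, with 17.6, 20.3 and 19.3 CPM in treated TDECs, against 4.04, 4.495 and 6.87 CPM in 005 cells (1.89 ± 0.18). Tal1, a transcription factor of blood and endothelium, had 1.996, 0.961 and 1.34 CPM in treated TDECs, against 4.34, 5.17 and 4.39 CPM in 005 cells (-1.69 ± 0.27), and Vwf, von Willebrand factor, had 0.739, 0.739 and 0.743 CPM in treated TDECs, against 2.13, 2.47 and 2.71 CPM in 005 cells (-1.71 ± 0.29). Pecam1, which encodes the endothelial junction protein CD31, had 0.887, 1.04 and 0.5199 CPM in treated TDECs, against 1.03, 1.498 and 1.68 CPM in 005 cells (-0.78 ± 0.36, adjusted p = 0.0789) and was not called. Its groups overlapped at about 1 CPM, against a mean of 1327 CPM in MBMECs. Eng (1.06 and 0.741 CPM in treated TDECs and 005), Nos3 (0.962 and 1.23 CPM) and Egfl7 (1.48 and 2.16 CPM) lay at similar levels, against 273, 2162 and 620.2 CPM in MBMECs. The 16 untested markers included Cdh5, the junctional cadherin, with 1 count over the treated and 1 over the 005 libraries, Cd34, with 20 and 38 counts, and Cldn5, with 0 in both. The summed level of the 30 markers was 207 to 222 CPM in treated TDECs and 142.5 to 162 CPM in 005 cells. Most defining endothelial markers were at or near 0 in both groups, and the cells are called TDECs here only by their label. In the study TDECs stained for the CD31 and CD34 proteins and formed tubes on Matrigel, which RNA levels do not measure.

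Stem cell markers were partly kept. Of 25 neural and glioma stem cell markers, 23 were tested. Of these, 6 fell (26.1%, against 10.2% of all genes) and none rose (against 12.2%), with a median log2 fold change of -0.43. The summed level was 2721 to 2952 CPM in treated TDECs and 4075 to 4631 CPM in 005 cells. Dll3 and Dll1, Notch ligands, had log2 fold changes of -3.74 ± 0.15 and -2.64 ± 0.11. Fabp7, a fatty acid binding protein of radial glia, had 84.9, 92.1 and 89.7 CPM in treated TDECs, against 456, 444 and 323 CPM in 005 cells (-2.196 ± 0.12). Each treated library was below each 005 library for Fabp7. Sox2, a core factor of neural stem cells, had 298, 296 and 292 CPM in treated TDECs, against 311, 293 and 316 CPM in 005 cells (-0.054 ± 0.065, adjusted p = 0.493), with overlapping groups. Prom1, which encodes CD133, had 33.6, 39.7 and 40.5 CPM in treated TDECs, against 28.2, 27.8 and 22.8 CPM in 005 cells (0.53 ± 0.11), was not called against 005, and had 109, 116 and 117 CPM in untreated TDECs (-1.601 ± 0.071). Egfr, the EGF receptor, averaged 34.2 CPM in treated TDECs, 15.7 CPM in untreated TDECs and 30.1 CPM in 005 cells, and was higher in treated than in untreated TDECs (1.11 ± 0.088). Pou5f1 had no counts in any of the 6 libraries.

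More astrocyte markers rose than fell, while more oligodendrocyte lineage and neuronal markers fell than rose. Of 13 tested oligodendrocyte lineage markers (of 21), 5 fell (38.5%, against 10.2% of all genes) and none rose (against 12.2%). The lineage transcription factor Olig1 had 203, 157 and 208 CPM in treated TDECs, against 836, 852 and 968 CPM in 005 cells (-2.22 ± 0.11), Olig2 had 194, 153 and 191 CPM in treated TDECs, against 542, 542 and 626 CPM in 005 cells (-1.67 ± 0.100), and the progenitor proteoglycan Cspg4 had 22.8, 18.1 and 28.4 CPM in treated TDECs, against 84.6, 79.4 and 109.8 CPM in 005 cells (-1.98 ± 0.16). Cldn11, a claudin of myelin, had a log2 fold change of -3.98 ± 0.37, or -4.69 without replicate 2 of the treated group. Of 18 tested astrocyte markers (of 19), 10 rose (55.6%) and 1 fell (5.56%), beside the same all-gene shares, with a median of 1.10. Slc4a4, a bicarbonate transporter, had 119, 105 and 111 CPM in treated TDECs, against 10.9, 10.9 and 8.04 CPM in 005 cells (3.49 ± 0.12). Glul, glutamine synthetase, had 560.4, 640.2 and 566 CPM in treated TDECs, against 199, 194 and 193 CPM in 005 cells (1.59 ± 0.074), and Apoe, apolipoprotein E, had 164, 231 and 144 CPM in treated TDECs, against 16.2, 14.5 and 20.5 CPM in 005 cells (3.397 ± 0.18). Gfap, the intermediate filament of astrocytes, had 43.3, 76.7 and 38.1 CPM in treated TDECs, against 3.75, 2.47 and 5.85 CPM in 005 cells (3.71 ± 0.31), with replicate 2 the highest of the treated libraries, as it was for Apoe, Clu and Ndrg2. S100b, another astrocyte marker, fell (-1.67 ± 0.44, or -2.26 without replicate 1 of the treated group). Without both libraries that stood apart, 8 astrocyte markers rose and 1 fell.

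Of 17 tested neuronal markers (of 23), 4 rose (23.5%, against 12.2% of all genes) and 9 fell (52.9%, against 10.2%), with a median log2 fold change of -1.03. Besides Dcx, the growth cone protein Gap43 had 26.3, 32.3 and 25.4 CPM in treated TDECs, against 105, 101 and 117 CPM in 005 cells (-1.94 ± 0.10), the RNA-binding protein Elavl4 had 3.11, 2.88 and 4.16 CPM in treated TDECs, against 19.5, 19.7 and 19.9 CPM in 005 cells (-2.54 ± 0.15), and the dendritic protein Map2 had 229, 202 and 217 CPM in treated TDECs, against 640.4, 646 and 513 CPM in 005 cells (-1.47 ± 0.094). The 4 that rose included 2 granule cargo genes, Scg2 and Vgf, with Vgf at 183, 240.1 and 168 CPM in treated TDECs, against 16.5, 15.9 and 26.6 CPM in 005 cells (3.32 ± 0.19). The others were Gad1, which makes GABA (2.15 ± 0.14), and the synaptic fusion protein Snap25 (1.62 ± 0.23). Scg2 was far higher in treated than in untreated TDECs (43.5, 42.1 and 43.8 CPM, 2.64 ± 0.079). Rbfox3, which encodes NeuN, had 0.296, 0.517 and 0.743 CPM in treated TDECs, against 1.03, 1.12 and 1.17 CPM in 005 cells (-1.08 ± 0.39), and its call was lost without replicate 1 or 2 of the treated group, without any 1 replicate of 005, and with DESeq2 (adjusted p = 0.15, within a range of 0.0209 to 0.895 over the alternatives, the highest in a test against a 2-fold change). Without both libraries that stood apart, 5 neuronal markers rose and 7 fell.

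Mural, fibroblast and leukocyte markers were checked for other cell types. Of 9 tested mural markers (of 16), 4 rose (44.4%, against 12.2% of all genes) and 1 fell (11.1%, against 10.2%). Pdgfrb, the PDGF receptor of pericytes, had 7.098, 6.95 and 7.28 CPM in treated TDECs, against 0.368, 0.2996 and 0.146 CPM in 005 cells (4.67 ± 0.29). Acta2, smooth muscle actin, had 3.11, 6.06 and 4.61 CPM in treated TDECs, against 0, 0.0749 and 0 CPM in 005 cells, which is 186 counts against 1, a ratio of 186 with a 95% counting interval of 33.1 to 7410. Myl9, a myosin light chain, had 23.4, 40.6 and 25.5 CPM in treated TDECs, against 5.22, 5.77 and 3.36 CPM in 005 cells (2.64 ± 0.24), and replicate 2 was the highest treated library for it and for Acta2. Mcam, an adhesion molecule of vessels, fell (-1.24 ± 0.13), and Anpep rose (2.18 ± 0.48, or 2.92 without replicate 1 of 005). The summed level of the 16 markers was 349 to 373 CPM in treated TDECs and 249 to 279 CPM in 005 cells.

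Of 18 tested fibroblast matrix markers (of 22), 6 rose (33.3%, against 12.2% of all genes) and 5 fell (27.8%, against 10.2%). Fn1, fibronectin, had 658, 475 and 659.7 CPM in treated TDECs, against 114, 108 and 73.6 CPM in 005 cells (2.600 ± 0.16), and the collagen-modifying enzyme Loxl2 had 89.2, 78.9 and 98.1 CPM in treated TDECs, against 8.67, 6.67 and 6.51 CPM in 005 cells (3.61 ± 0.13). Timp3 (2.45 ± 0.098) and Col5a1 (1.26 ± 0.079) rose as well, while the fibrillar collagen chains Col3a1 (-3.67 ± 0.26) and Col5a2 (-1.83 ± 0.16) and the surface protein Thy1 (-3.03 ± 0.37) fell. Fbln1, fibulin 1, had 13.5, 16.04 and 16.9 CPM in treated TDECs, against 68.9, 76.4 and 79.9 CPM in 005 cells (-2.28 ± 0.11), and 4.79, 3.85 and 4.82 CPM in untreated TDECs (1.77 ± 0.15), so its treated level lay between the others. The summed level of these markers was 1783 to 2066 CPM in treated TDECs and 1144 to 1267 CPM in 005 cells. Of 16 microglia and leukocyte markers, 8 had no counts in any of the 6 libraries, 2 were tested, and Cd68, a lysosomal glycoprotein, rose (1.95 ± 0.18). The part of other cell types in the results above was not tested.

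Of 34 lysosome and autophagy genes, 19 rose (55.9%, against 12.2% of all genes) and none fell, with a median log2 fold change of 1.04. Sqstm1, the autophagy receptor p62, had 1083, 1123 and 1041 CPM in treated TDECs, against 218, 214 and 228 CPM in 005 cells (2.299 ± 0.068). Ctsl, cathepsin L, had 417, 471 and 431 CPM in treated TDECs, against 108, 112 and 102 CPM in 005 cells (2.04 ± 0.076), and Gpnmb, a lysosomal glycoprotein, had 31.9, 30.7 and 25.5 CPM in treated TDECs, against 0.735, 1.72 and 1.39 CPM in 005 cells (4.51 ± 0.21). The groups were apart for all 3, and Gpnmb was the 1 member called against untreated TDECs (12.2, 12.9 and 14.9 CPM there, 1.13 ± 0.11). That test called 1.82% of all genes higher and 3.26% lower, so this count is no result about the list. Gaa, the acid glucosidase of lysosomes, had 560, 521 and 577 CPM in treated TDECs, against 174, 166 and 194 CPM in 005 cells (1.63 ± 0.079).

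Of 20 NRF2, iron and metallothionein genes, 10 rose (50%, against 12.2% of all genes) and 2 fell (10%, against 10.2%). Hmox1, heme oxygenase 1, had 1273, 1353 and 1318 CPM in treated TDECs, against 53.2, 55.96 and 58.1 CPM in 005 cells (4.56 ± 0.077, adjusted p = 5.3e-12). Srxn1, which repairs peroxiredoxins, had 98.9, 111 and 104 CPM in treated TDECs, against 21.7, 23.4 and 21.1 CPM in 005 cells (2.24 ± 0.084), and Fth1, the ferritin heavy chain, had 9099, 10870 and 9556 CPM in treated TDECs, against 1777, 1764 and 2102 CPM in 005 cells (2.39 ± 0.092). Each treated library was above each 005 library for all 3. Gclc, which catalyses the limiting step of glutathione synthesis, rose less (1.32 ± 0.070), and Nqo1, a quinone reductase, was not called (0.095 ± 0.21). The antioxidant proteins Txn1 (-1.58 ± 0.11) and Prdx1 (-1.05 ± 0.081) fell. The metallothionein Mt2 had 308, 598 and 318 CPM in treated TDECs, against 8.31, 10.1 and 15.4 CPM in 005 cells, with replicate 2 the highest of the treated libraries, as it was for Mt1 and Mt3.

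Of 24 tested cholesterol synthesis and uptake genes (of 25), 7 fell (29.2%, against 10.2% of all genes) and none rose, with a median log2 fold change of -0.61. Acat2, an acetyl-CoA acetyltransferase, had 40.96, 49.7 and 43.5 CPM in treated TDECs, against 153, 166 and 147 CPM in 005 cells (-1.796 ± 0.088), Dhcr7, which acts at the end of the pathway, had 62.7, 59.5 and 61.6 CPM in treated TDECs, against 133, 139.5 and 130.2 CPM in 005 cells (-1.13 ± 0.069), and the mevalonate pathway kinase Pmvk had 22.99, 24.98 and 23.9 CPM in treated TDECs, against 59.03, 56.4 and 62.01 CPM in 005 cells (-1.303 ± 0.085). The groups were apart for these 3. Hmgcs1, an early enzyme of the pathway, was just past the 2-fold rule (-1.01 ± 0.087), with -0.99 without replicate 3 of the treated group and -0.96 and -0.97 without replicate 1 or 2 of 005. Insig1, a sterol-regulated brake on the pathway, had 413, 391 and 423 CPM in treated TDECs, against 322, 319.7 and 305 CPM in 005 cells (0.38 ± 0.066), was not called against 005 and was higher than in untreated TDECs (184, 181 and 181 CPM, 1.16 ± 0.052).

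Among 14 tested retinoic acid genes (of 23), 5 rose (35.7%) and none fell, where 12.2% and 10.2% of all genes did. Besides Dhrs3 and Rarb, the retinoic acid hydroxylase Cyp26b1 had 11.9, 10.9 and 11.4 CPM in treated TDECs, against 0.662, 0.599 and 0.293 CPM in 005 cells (4.44 ± 0.24), the receptor Rara had 62.1, 59.2 and 66.8 CPM in treated TDECs, against 27.5, 24.1 and 28.5 CPM in 005 cells (1.23 ± 0.093), and the retinol dehydrogenase Rdh10 rose (1.06 ± 0.12). Against untreated TDECs, 4 of 16 tested retinoic acid genes were called lower and none higher, where 3.26% and 1.82% of all genes were called. Among 18 tested Notch genes (of 20), 11.1% rose and 22.2% fell. The ligand Jag1 (1.62 ± 0.10) and the receptor Notch2 (1.77 ± 0.13) rose, and Dll3, Dll1, Hes5 and the glycosyltransferase Mfng (-1.65 ± 0.21) fell. Hes1, another Notch target, was not called (0.063 ± 0.080, adjusted p = 0.512). Among 10 tested imprinted growth genes (of 13), Plagl1, a zinc finger factor, rose (1.33 ± 0.14, and 2 genes rose without replicate 2 of the treated group or replicate 1 of 005), and H19, Igf2 (-2.001 ± 0.32), Mest (-2.22 ± 0.13), Peg3 (-1.46 ± 0.088) and Cdkn1c fell. Of these tested genes, 10% rose and 50% fell.

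Of 14 tested p53 targets (of 16), 5 rose (35.7%, against 12.2% of all genes). Those that rose included Gadd45a, a growth arrest gene with 267, 298 and 279.6 CPM in treated TDECs, against 32.5, 33.8 and 45.6 CPM in 005 cells (2.92 ± 0.12), Tnfrsf10b, a death receptor (1.35 ± 0.24), and the pro-apoptotic gene Bbc3 (1.01 ± 0.16), with 0.90 without replicate 2 of the treated group and 0.99 and 0.85 without replicate 1 or 2 of 005. Mdm2, a direct p53 target, was not called (0.40 ± 0.073). Of 17 tested interferon response and MHC class I genes (of 24), 1 rose (5.88%, against 12.2% of all genes), a count that was 3 without replicate 3 of 005. It was H2-K1, an MHC class I heavy chain (1.81 ± 0.11). Of 11 tested mitochondrially encoded genes (of 13), 1 fell (9.09%, against 10.2% of all genes). This gene, mt-Atp6 (-1.08 ± 0.39), had 14.6, 18.8 and 15.8 CPM in treated TDECs, against 32.5, 59.03 and 12.4 CPM in 005 cells. Its groups overlapped and its log2 fold change was -0.45 without replicate 2 of 005, and its adjusted p was 0.057 to 0.080 without 1 of the treated replicates, within a range of 8.3e-13 to 0.919 over the alternatives. Of 21 serotonin transport and receptor genes, 6 were tested, none rose and 2 fell (33.3%, against 10.2% of all genes). Htr3a, a serotonin-gated channel, had 4.81, 6.65 and 3.86 CPM in treated TDECs, against 11.3, 14.6 and 14.3 CPM in 005 cells (-1.39 ± 0.19), and Tph2, which makes serotonin in neurons, had 2.96, 2.59 and 2.45 CPM in treated TDECs, against 7.28, 5.54 and 7.82 CPM in 005 cells (-1.37 ± 0.20). The transporter Slc6a4 had 1 count over the treated libraries, 2 over the untreated TDEC libraries and 4 over the 005 libraries, and was not tested.

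Set side by side, the list medians of treated and untreated TDECs, each taken against the same 3 libraries of 005, were as follows. Mitosis had medians of -3.20 for treated and -4.16 for untreated TDECs, and DNA replication -2.39 and -2.63. Hypoxia and glycolysis had 1.31 and 1.55, the integrated stress response 1.55 and 1.55, and the unfolded protein response 1.92 and 1.45. Basement membrane had 1.72 and 1.25, the angiogenic list 1.02 and 0.87, the immediate early list 1.14 and 1.22, and the endothelial list -0.07 and -0.17. As the comparisons share the 005 libraries, the likeness of the pairs is a description and not a test. The direct medians of treated over untreated TDECs were 0.752 for mitosis and 0.266 for DNA replication. They were -0.398 for hypoxia and glycolysis, -0.0218 for the integrated stress response and 0.318 for the unfolded protein response. Basement membrane had 0.18, the angiogenic list 0.125, the immediate early list -0.443 and the endothelial list -0.0537. The median of all tested genes for treated over untreated TDECs is not given here, so small list medians cannot be set against it. The tested members of a list can differ between comparisons. The direct test between treated and untreated TDECs called 283 genes higher (1.82% of 15540) and 506 lower (3.26%).

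**Figure D5:**
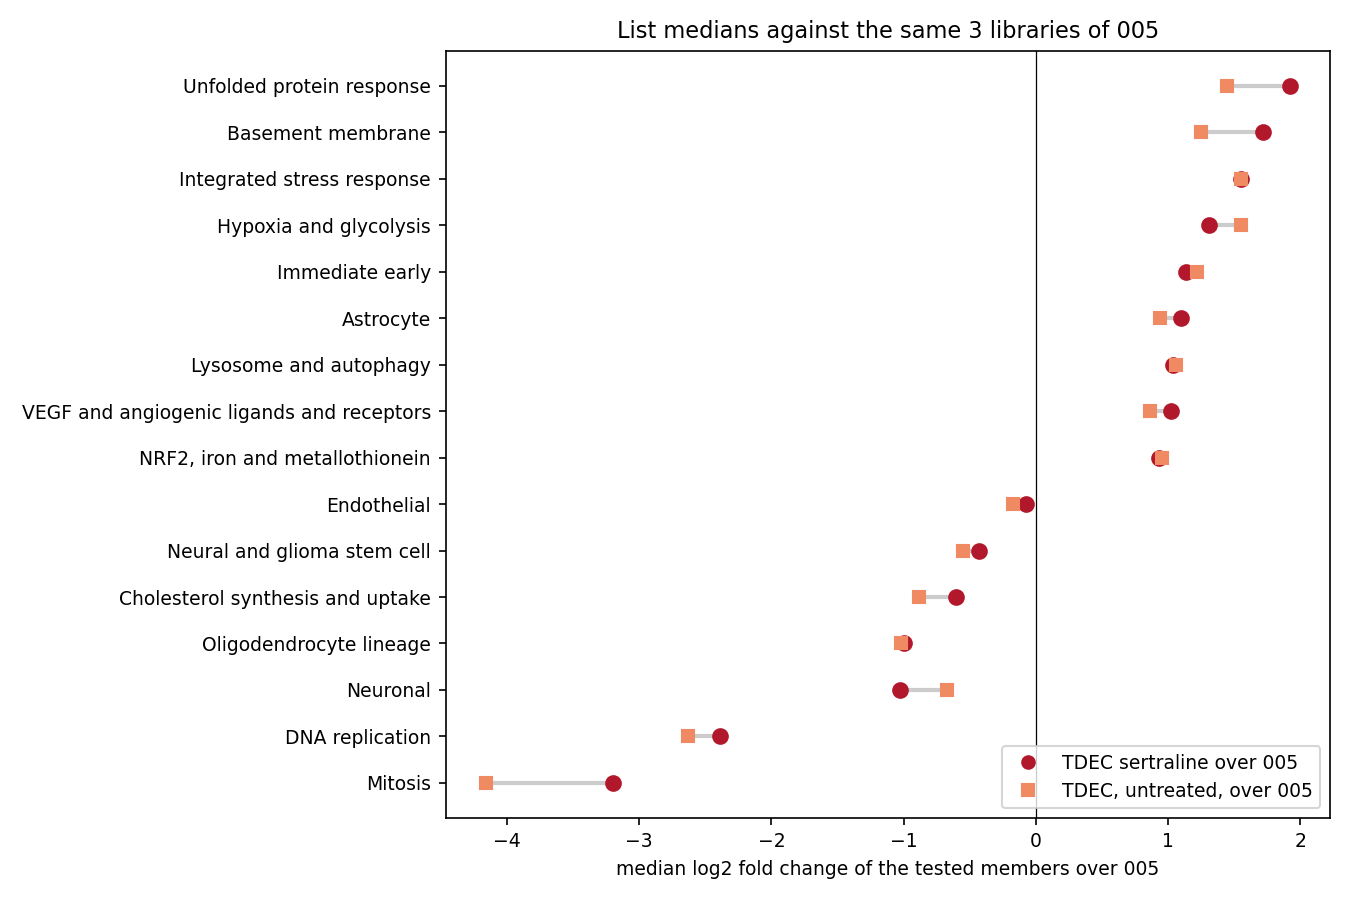
Median log2 fold change of the tested members of 16 lists for sertraline-treated TDECs over 005 cells (circles) and untreated TDECs over the same 005 libraries (squares). The circle and the square lie furthest apart for mitosis, at -3.20 for treated and -4.16 for untreated TDECs.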

How the data were processed

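Poly(A) RNA of 15 cell culture samples had been sequenced with a directional kit, and the deposited table holds raw whole-number read counts per gene, which the authors made with bcl2fastq 2.19, Trimmomatic 0.38, HISAT2 2.1.0 and featureCounts 1.6.3 on mm10 per the submitters' processing notes. The annotation release and the use of strand in counting are not given in the sources used here, so reads of overlapping antisense genes may have been shared. Samples were grouped by their titles.

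Genes were kept by filterByExpr (minimum count 10), scaled by TMM and tested between the 3 TDEC sertraline and 3 005 samples with edgeR 4.0.16 (quasi-likelihood test, R 4.3.3, limma 3.58.1), with Benjamini-Hochberg adjustment over all tested genes. The threshold was an adjusted p under 0.05 with more than a 2-fold change, and the SE is the log2 fold change divided by the square root of F. The same test set TDEC sertraline against TDEC and TDEC against 005. CPM were computed from the counts. Counting floors were 3 counts over a group, and ratios have exact 95% intervals. On simulated data with 15579 genes of which 200 were changed, the first comparison recovered 98.5% at a log2 size of 1.5 and 100% at 2.5 and 4, with 4 false calls. The simulation changed far fewer genes than were called in the data, and none of its libraries was made to stand apart. Its shares may therefore not hold for the data.

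The named genes came first from a ranking of the 12 largest rises and the 12 largest falls. That ranking took only genes whose groups did not overlap and whose mean level reached 10 CPM, so larger changes may be missing. Also named were up to 4 called members per list and direction by p, and genes the study names. Other members were chosen after their values were seen. The 27 gene lists and these rules were chosen with earlier results of these data known. Alternatives were other scalings, filters, thresholds and fits, DESeq2 1.42.0, a replicate block and left-out libraries. Promoters came from the RefSeq table of GRCm38.p6.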

Additional observations from a re-analysis of the deposited data

Results flagged for a closer look

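In 4 of the named genes the difference from 005 cells took another form in treated than in untreated TDECs, and the direct test between treated and untreated TDECs passed the threshold. The carbonic anhydrase Car12 had a log2 fold change over 005 of -1.03 in treated and 0.61 in untreated TDECs, with treated over untreated at -1.66 (adjusted p = 5.2e-05). Its call for treated TDECs against 005 was just past the 2-fold rule. That call was lost when some single libraries were left out, and the treated and 005 libraries overlapped. The anti-proliferative gene Btg2 had -1.03 and 0.49, with treated over untreated at -1.55 (adjusted p = 7.3e-11). Its call for treated TDECs against 005 was also just past the 2-fold rule and was lost when some single libraries were left out. The vessel-destabilizing ligand Angpt2 had -1.58 and -0.035, with treated over untreated at -1.57 (adjusted p = 7.6e-10). Prom1, which encodes the stem cell marker CD133, had 0.53 and 2.104, with treated over untreated at -1.60 (adjusted p = 1.7e-10). In each gene all 3 treated libraries lay below all 3 untreated ones. The 005 libraries enter both differences, and the drug cannot be told apart from a difference in collection time, which the sources used here do not give, or from what the title prefix marks.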

How the results depend on the processing

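No named gene that was called reversed its direction under the alternatives run; the other called genes were not followed one by one. The counts of calls over all genes moved by more than 1.5 times only with the threshold or the count minimum. Of the list counts against 005 under the alternatives, 795 stayed within 1.5 times and 69 did not. On the adjusted p alone, 4875 genes were higher and 4857 lower in TDEC sertraline than in 005, and 2738 higher and 2751 lower than in TDEC; tested against a 2-fold change with glmTreat, the counts were 1172 and 973 against 005 and 41 and 78 against TDEC; with a minimum count of 50, 116 and 188 were called against TDEC. Leaving out 1 replicate at a time gave 1877 to 2088 higher and 1608 to 1658 lower against 005, and 261 to 290 higher and 486 to 602 lower against TDEC. DESeq2 called 1993 higher and 1642 lower against 005. Of the calls, 54.5% were higher with TMM scaling, 54.8% with RLE and 48.4% with library totals, which moved the median of all genes to -0.0888. Of the alternatives for the named genes against 005, 2116 kept direction and side of the threshold, 51 lost the threshold and 1 gained it. Same-numbered samples had deviations from their group means correlated at 0.0577, -0.118 and -0.113. The largest correlation, 0.183, was between the libraries that stood apart, treated replicate 2 and 005 replicate 3. With so few libraries per group, such correlations cannot decide whether the replicate numbers pair the samples. A fit with the replicate block called 1913 higher and 1579 lower against 005 and 276 and 511 against TDEC.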
